A study of Mus musculus with 2 samples.

Results

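A small set of cells in the mutant tendon library carried high levels of Scx transcript, and these cells are described here. Scx encodes Scleraxis, the basic helix-loop-helix transcription factor that marks tendon progenitors and tenocytes, the resident cells of tendon. A cell was selected when Scx made up at least 30 of every 10000 of its UMIs (unique molecular identifiers, each standing for 1 captured transcript). The 4 haemoglobin genes Hba-a1, Hba-a2, Hbb-bs and Hbb-bt together had to hold under 10% of its UMIs. It also had to hold fewer than 4 UMIs over the proliferation genes Mki67, Top2a, Cdk1 and Birc5, and fewer than 5 over the immune genes Tyrobp, Fcer1g, Laptm5 and Ptprc. In the mutant library 206 of 2592 cells met these limits (7.95%, exact binomial 95% interval 6.94% to 9.06%), out of 4956 cells in both libraries. The same limits selected 1106 of the 2364 wild-type cells (46.8%, 44.8% to 48.8%).

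Each library held cells pooled from the fore- and hindlimb tendons of 2 pups at postnatal day 7 (P7), released by enzymatic digestion. Mutant pups (Tgfbr2;ScxCre) carried floxed Tgfbr2 together with the tendon deletor ScxCre. The type II TGFβ receptor was thus to be lost from cells that had expressed Scx. By the study's account ScxCre acted unevenly in the embryo, but receptor staining was nearly gone from mutant tendons at birth. The control library is labelled wild-type in its title and genotype and Het in its description, and is called wild-type below. Mice of both groups carried the tendon reporter ScxGFP and the Cre reporter Ai14. By the study's account the Scx counts take in ScxGFP, and so do not give the level of the endogenous gene. These 3′ counts do not tell the gene and transgene sequence apart. In mutant tendons at P7 the study describes some cells with ScxGFP signal, part of them with weak or no Cre reporter signal. It proposes that they were newly recruited tendon cells. Whether the cells selected here are the same was not tested. There was 1 library per group, so no comparison could be tested, and genotype, pups and library preparation cannot be told apart.

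TGFβ signals through a pair of receptor kinases, and cells that lack the type II receptor cannot pass the ligand's signal to Smad2 and Smad3, which control transcription. The pathway is known for driving matrix production and contractile genes in fibroblasts, and in tendon it is needed both to recruit tendon cells in the embryo and to maintain them. Tenocytes are known for making large amounts of type I collagen and for expressing Tnmd, a membrane glycoprotein, and Fmod, a small proteoglycan that binds collagen fibrils. They are surrounded by fibroblasts of the peritenon and other sheaths, which are known for genes such as Dpt, Pi16, Cd34 and Ly6a.

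Scx was not evenly low in the mutant library. Of the mutant cells that passed the other 3 limits, 71.8% had no Scx UMI, against 14.3% in the wild-type library. The mutant Scx-high cells ranged from 30.01 to 1393 Scx UMIs per 10000, with a median of 159, and the wild-type Scx-high cells from 30.7 to 879, with a median of 232. The 2 ranges overlapped almost entirely, but the mutant cells were spread over the ranges from 30 to 480, with 42 to 45 cells in each, while the wild-type cells lay mostly between 120 and 480. The mutant Scx-high cells were 7.95% of their library and held 80.1% of its Scx UMIs. Near the threshold there was no gap, since the nearest mutant cells below it had 29.6 and 28.8 Scx UMIs per 10000 and the nearest above it 30.01 and 30.5, 22 selected cells had under 40, and 26 cells lay between 20 and 30. Of the 235 mutant cells at the Scx threshold, 29 were left out for their proliferation genes (12.3%), against 59 of 1178 wild-type cells (5.01%). Immune cells, which should lack Scx, gave its background. Their median was 0 Scx UMIs per 10000 in the mutant library and 4.91 in the wild-type library. At least 1 Scx UMI was held by 11.6% of the mutant and 72.0% of the wild-type immune cells. This difference in background bears on the shares of cells with no Scx UMI, which do not compare the libraries directly.

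**Figure D1:**
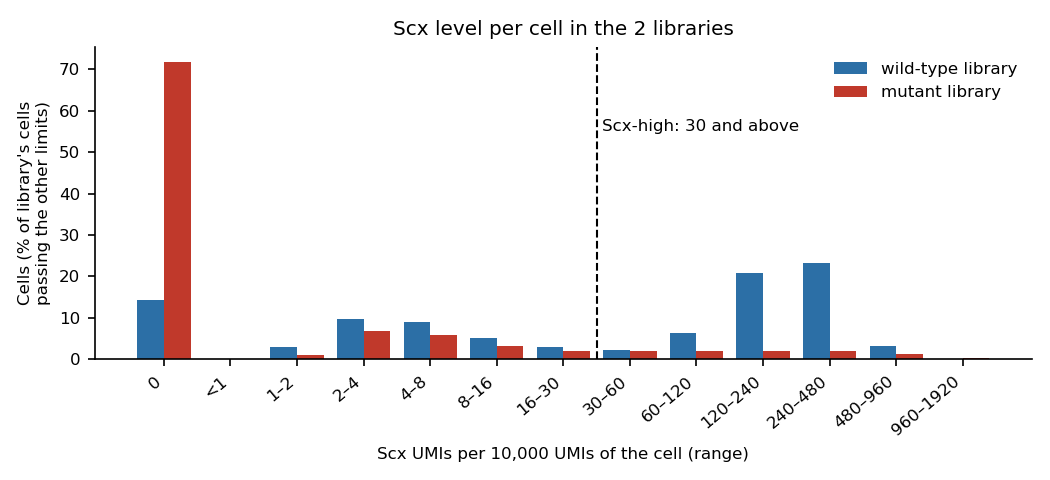
Share of each library's cells (%, y axis) in ranges of Scx UMIs per 10000 UMIs of the cell (x axis), among cells that passed the haemoglobin, proliferation and immune limits. The mutant bars are tallest at 0 (71.8%) and stay at or under 2.04% above the threshold of 30 (dashed line), where the wild-type bars peak between 120 and 480.

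The selected cells were sequenced to a median of 3965 UMIs each, close to the 4234 of the wild-type Scx-high cells and above the 2800 of the 1829 mutant Scx-low cells. The Scx-low cells met the same haemoglobin, proliferation and immune limits, had under 30 Scx UMIs per 10000 and had fewer than 3 UMIs over markers of pericytes, endothelium, Schwann cells, muscle and epidermis. The libraries shared 2 cell barcodes, neither in a Scx-high cell. For each group the UMIs of all cells were added up and expressed per 1000000 (CPM), from totals of 880557 UMIs in the mutant Scx-high cells, 4528683 in the wild-type Scx-high cells and 5519766 in the mutant Scx-low cells. Intervals given with ratios are exact 95% intervals of counting error only, and say nothing of the spread between pups or between cells.

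A few of the 206 cells carried markers of another cell type. With 3 or more UMIs over the markers listed above, 14 cells stood apart, against 9 of the 1106 wild-type Scx-high cells. Skeletal muscle markers led in 10 of them, Schwann or neural markers in 3 and pericyte or smooth muscle markers in 1. The 10 muscle-marked cells held from 6 to 126 UMIs of Myog, which encodes the myogenic factor Myogenin. Their Scx level was 31.9 to 580 per 10000, and 5 of them were above 100. None of the 10 had a Tnmd UMI and 9 had no Fmod UMI. In the deepest of them, 9243 UMIs included 536 of Scx, 126 of Myog, 20 of Myod1, 52 of Actc1 and 3 of Col1a1. All 325 Myog and all 151 Actc1 UMIs of the mutant Scx-high cells lay in these 14 cells, so both genes read 0 in the other 192, and values that turn on the 14 cells are given below with and without them. Without them the summed skeletal muscle markers went from 545 to 22.9 CPM, with 5 of 10 genes at 0 and Myod1 highest at 9.65 CPM.

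The tenocyte markers were present in most cells, 175 of the 206 holding a Tnmd UMI and 173 a Fmod UMI. Tnmd (ENSMUSG00000031250, GRCm38 chrX:133850980-133865577) ranged from 0 to 282 UMIs per 10000 in the mutant Scx-high cells, with a median of 43.3, against a median of 69.2 and a highest value of 360 in the wild-type Scx-high cells. Fmod (ENSMUSG00000041559, chr1:134037254-134048277) had a median of 19.9 and a highest value of 126 per 10000, against 53.4 and 386. The 2 groups overlapped for both genes, with the mutant median the lower. In the mutant Scx-low cells the median of both genes was 0. Summed over cells, Tnmd was at 5445 CPM in mutant Scx-high cells, 7536 CPM in wild-type Scx-high cells and 1040 CPM in mutant Scx-low cells, and Fmod was at 2500, 5437 and 347 CPM. Mkx, a homeobox factor of tendon, was at 78.4, 130 and 20.3 CPM. Kera, another small proteoglycan, was at 785, 1427 and 614 CPM, so that it separated the mutant groups little. Among cartilage genes, Acan was at 329 CPM against 250 CPM in the wild-type Scx-high cells, a direction that turned under alternatives given below. Col2a1 was lower, at 126 against 880 CPM, as was Ucma.

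Scleraxis binds E-boxes, 6-base sites written CANNTG, so the start-site sequences of 3 genes that were higher in Scx-high than in Scx-low mutant cells are shown. Each runs from 250 bases before to 50 bases after the start (RefSeq, GRCm38.p6, plus strand), with every CANNTG in capitals. The motif reads the same on both strands, and 72.3% of 32851 such windows hold at least 1, so a match is only a description. The Tnmd window (chrX:133850758-133851057) holds none, the Fmod window (chr1:134037004-134037303) holds 1 and the Col11a2 window (chr17:34038888-34039187) holds 2. The Fmod site is of the form CATCTG or CAGATG, found in 17.2% of windows.
Tnmd: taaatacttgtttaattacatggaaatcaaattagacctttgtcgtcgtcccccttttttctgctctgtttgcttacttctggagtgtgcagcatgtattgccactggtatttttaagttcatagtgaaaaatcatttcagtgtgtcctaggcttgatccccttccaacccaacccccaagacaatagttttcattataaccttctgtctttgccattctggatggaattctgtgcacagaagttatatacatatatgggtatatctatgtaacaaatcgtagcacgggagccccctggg
Fmod: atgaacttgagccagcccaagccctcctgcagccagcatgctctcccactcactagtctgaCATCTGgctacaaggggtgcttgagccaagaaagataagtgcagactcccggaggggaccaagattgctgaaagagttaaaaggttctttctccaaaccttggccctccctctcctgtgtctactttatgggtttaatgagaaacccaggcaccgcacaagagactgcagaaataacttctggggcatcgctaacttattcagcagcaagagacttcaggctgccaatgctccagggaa
Col11a2: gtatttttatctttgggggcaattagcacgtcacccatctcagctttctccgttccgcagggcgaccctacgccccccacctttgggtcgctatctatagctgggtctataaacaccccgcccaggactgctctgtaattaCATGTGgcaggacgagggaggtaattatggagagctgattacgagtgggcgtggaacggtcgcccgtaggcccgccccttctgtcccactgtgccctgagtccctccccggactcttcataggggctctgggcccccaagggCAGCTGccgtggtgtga

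Tgfbr2, the targeted gene (ENSMUSG00000032440, GRCm38 chr9:116084293-116175360, minus strand), was still counted. It had 44 UMIs in the mutant Scx-high cells (49.97 CPM), against 29.8 CPM in the wild-type Scx-high cells, a ratio of 1.68 (1.17 to 2.37). The Scx-low cells were at 73.4 CPM in the mutant and 75.3 CPM in the wild-type library. A 3′ count does not read the floxed exon unless the exon lies at the 3′ end, so these values do not check the deletion. At equal depth 6.45% of the mutant Scx-high cells had a Tgfbr2 UMI (3.38% to 11.0%), against 4.63% of the wild-type Scx-high cells (3.42% to 6.11%), and in any single cell its absence says nothing at this depth.

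Mutant Scx-high cells were then set against wild-type Scx-high cells, to ask how far cells with a similar Scx level also shared the rest of the tenocyte profile. Of the 4254 genes that averaged 0.1 UMI per cell or more, 484 were at least 2-fold higher in the mutant cells (11.4%) and 145 at least 2-fold lower (3.41%). The median gene was 0.33 higher on the log2 scale, and the counts for gene lists given below stand against these shares and this median. Once ratios were centred on the median gene the counts were 263 higher and 295 lower, so the split between directions depends on the scaling. Without the 14 cells and the 9 like them in the wild-type library, 453 genes were higher and 145 lower.

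Tenocyte genes were mostly lower. All 28 listed tenocyte genes were measured well enough to compare. By any amount 21 were lower and 7 higher, where 72.3% of all genes were higher. By 2-fold or more 11 were lower and 3 higher, beside 3.41% and 11.4% of all genes. The median log2 ratio was -0.63 beside 0.33 for all genes. Some of these genes were picked by the study in these same libraries, so the count is not independent evidence. Lower by the largest factors were Car9, a carbonic anhydrase, at 15.9 against 287 CPM (18.1-fold, 10.7 to 33.1), Crabp1, a retinoic acid binding protein, at 27.3 against 486 CPM (17.8-fold, 11.9 to 27.9), Angptl7 at 28.4 against 289 CPM and Cpz, a carboxypeptidase, at 67.0 against 668 CPM. Crabp1 was at 22.8 CPM in mutant immune cells, so its mutant value is near background and its fold is nearer a bound. Wif1, a secreted Wnt inhibitor, was at 177 against 727 CPM and Sema3b at 61.3 against 532 CPM. Of the 11, the most abundant in the wild-type cells, 1500015O10Rik, was at 1470 against 7448 CPM (5.07-fold). Scx itself, on which both groups were chosen, was at 28529 CPM in the mutant and 26354 CPM in the wild-type cells.

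A minority of the tenocyte genes were higher than in the wild-type cells. C1qtnf3 was at 3039 against 768 CPM (3.96-fold, 3.76 to 4.16) and Cilp at 851 against 48.1 CPM (17.7-fold, 15.2 to 20.6). Thbs4, a thrombospondin of tendon matrix, was at 1805 against 1149 CPM (1.57-fold), Thbs2 at 710 against 473 CPM, Chad, a collagen-binding matrix protein, at 299 against 136 CPM, and Tnc, which encodes tenascin C, at 443 against 297 CPM. Scx-low cells of the mutant library were also above those of the wild-type library for these genes, and divided by that ratio C1qtnf3, Chad, Thbs2 and Thbs4 were slightly below the wild-type cells (log2 -0.19, -0.18, -0.14 and -0.26). Acan was 1.32-fold higher in the summed counts, but at -0.074 on the log2 scale, slightly lower, once cells were thinned to equal depth, and at -1.08 when divided by the ratio between Scx-low cells.

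Fibrillar collagens differed in both directions. Of 10 genes compared, 5 were at least 2-fold lower and 5 at least 2-fold higher, beside 3.41% and 11.4% of all genes (median 0.38 beside 0.33). Col1a1, the main collagen of tendon, ranged from 0 to 1052 UMIs per 10000 in the mutant Scx-high cells, with a median of 211, against 9.40 to 3009 and a median of 760 in the wild-type cells. Summed, it was at 21279 against 74836 CPM (3.52-fold lower, 3.47 to 3.57) and Col1a2 at 12524 against 47294 CPM. The mutant median was well below the wild-type one, while the ranges overlapped. Col2a1 (126 against 880 CPM), Col11a1 (410 against 954 CPM) and Col11a2 (252 against 1926 CPM) were lower as well. Col3a1, the collagen of loose and healing connective tissue, was at 4479 against 532 CPM (8.43-fold higher, 8.01 to 8.87), Col5a1 at 837 against 52.1 CPM (16.1-fold), Col5a2 at 1056 against 268 CPM, Col27a1 at 72.7 against 8.39 CPM and Col5a3 at 49.97 against 6.85 CPM. Among 13 other collagens (median 0.62), Col8a1, Col8a2, Col22a1 and Col4a1 were at least 2-fold higher and none was 2-fold lower. Of 22 genes for collagen processing, 7 were at least 2-fold lower and 4 at least 2-fold higher, beside 3.41% and 11.4% of all genes, with a median log2 ratio of -0.17. P4ha1, a prolyl hydroxylase subunit, was at 130 against 858 CPM and Pcolce2, an enhancer of procollagen cleavage, at 71.6 against 386 CPM, while P4ha2 was at 46.6 against 9.72 CPM, Plod2, a lysyl hydroxylase, at 292 against 50.4 CPM and Loxl1, a crosslinking enzyme, at 380 against 51.9 CPM. Sparc, a collagen-binding glycoprotein, was at 18148 against 55726 CPM.

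**Figure D2:**
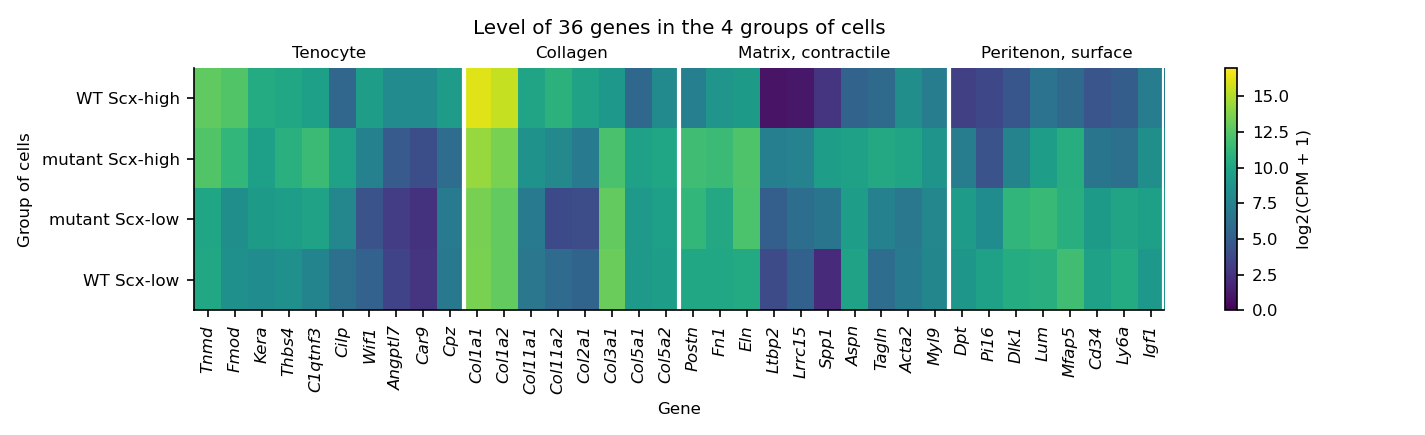
Level of each gene (columns, grouped by role) in the summed cells of each group (rows), as log2(CPM + 1), with brighter colours for higher levels. The mutant Scx-high row is close to the wild-type Scx-high row for Tnmd, between the rows for Fmod and Col1a1, and close to the Scx-low rows for Col3a1, Col5a1, Postn and Mfap5.

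The 12 genes with the largest ratios upwards began with Myog and Actc1, which came from the 14 cells described above. The other 10 kept their direction without those cells. They were Ltbp2 (158 against 0.883 CPM), which encodes a latent TGFβ binding protein family member, Lrrc15 (189 against 1.10 CPM), a membrane protein of TGFβ-responsive fibroblasts, Spp1 (702 against 4.86 CPM), which encodes osteopontin, Myoz2 (135 against 1.55 CPM), a protein of the muscle Z-disc, Rbp4 (335 against 4.42 CPM), a retinol carrier, Csrp2 (980 against 35.99 CPM), Mt2 (229 against 8.61 CPM), a metallothionein, Mfap5 (1517 against 57.4 CPM), a microfibril protein, Slc20a1 (117 against 5.08 CPM), a phosphate transporter, and Postn (3521 against 161 CPM), which encodes the matricellular protein periostin. Immune cells held Spp1 at 553 CPM in the mutant and 77.1 CPM in the wild-type library, and since immune cells are known to make it, they are no clean background for this gene. At equal depth it was found in 17.7% of the mutant Scx-high cells, 4.09% of the Scx-low cells and 23.7% of the immune cells. It was found in 0 of 70 haemoglobin-rich cells, which by a floor of 3 counts allows up to 4.29% (exact upper bound 5.13%). Ratios for genes nearly absent from the wild-type cells are loosely bounded, as for Ltbp2 (179-fold, 68.3 to 665), and tighter for the abundant ones, as for Postn (21.9-fold, 20.2 to 23.7) and Mfap5 (26.4-fold, 23.1 to 30.3). Myoz2 was not a mark of the muscle-marked cells. It was found in 49 of the 206 cells and its ratio was 92.2 without the 14.

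The 12 genes with the largest ratios downwards were Car9, Crabp1, Angptl7, Cpz, Sema3b, Col11a2, Col2a1 and P4ha1, given above, and Ucma, Aard, Ndufa4l2 and Ooep. Ucma, a cartilage matrix protein, was at 15.9 against 142 CPM (8.90-fold lower, 5.27 to 16.4) and Ndufa4l2, a mitochondrial protein made in low oxygen, at 137 against 880 CPM (6.40-fold lower). Aard was at 22.7 against 176 CPM and Ooep at 26.1 against 152 CPM. None of the 12 came back within 2-fold when the 14 cells were left out.

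**Figure D3:**
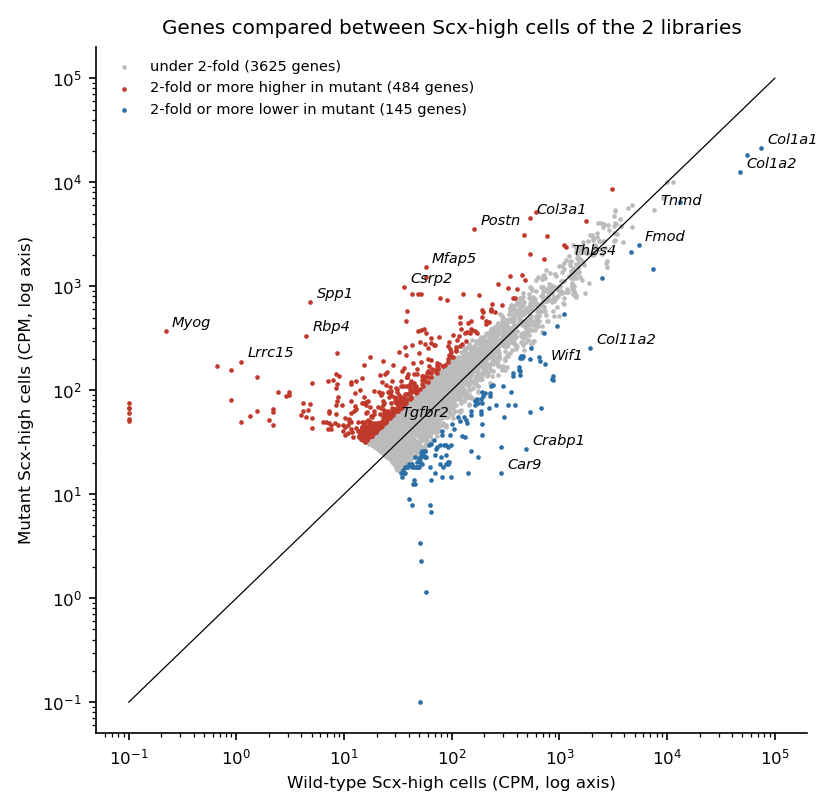
Level of each of the 4254 compared genes in wild-type (x axis) and mutant (y axis) Scx-high cells, in CPM on log axes, with genes at 0 UMIs in a group drawn at 0.1. Red points are the 484 genes at least 2-fold higher in the mutant cells, blue points the 145 at least 2-fold lower, and Tnmd lies close to the line of equality while Col1a1 and Col1a2 lie below it.

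Some genes differed between the libraries in every kind of cell looked at. Rps6, a ribosomal protein gene, stood at 0.180 of the wild-type level in Scx-high cells, 0.150 in Scx-low cells and 0.231 in immune cells, and Gapdh at 0.248, 0.217 and 0.137. Ppia, Gpx4, Myl6, Eno1 and Sec61g were likewise low in the mutant library in all 3 kinds of cell. Gapdh and Eno1 are 2 of the 4 hypoxia and glycolysis genes that were at least 2-fold lower, beside Car9 and P4ha1, of 10 compared (median -0.26).

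Genes of the TGFβ pathway and its known targets were counted next, the mutant being without the receptor in the cells where Cre has acted. Of 10 ligands, receptors, latency proteins and Smads compared, 3 were at least 2-fold higher and none 2-fold lower, beside 11.4% and 3.41% of all genes (median 0.81 beside 0.33). Tgfb1 was at 74.95 against 23.6 CPM, Tgfb2 at 136 against 53.2 CPM and Ltbp2 as above, while Tgfbr3, the co-receptor betaglycan, was at 20.4 against 36.4 CPM. Of 14 target genes compared, 8 were at least 2-fold higher and none was 2-fold lower, with a median of 1.15 beside 0.33 for all genes. Among them were Postn, Fn1 (3134 against 472 CPM, fibronectin), Tagln (1228 against 57.4 CPM) and Acta2 (960 against 330 CPM), both contractile proteins, Pmepa1 (368 against 48.4 CPM), a feedback inhibitor of the pathway, Ctgf (97.7 against 43.3 CPM) and Ldlrad4 (55.7 against 25.4 CPM). Many of these genes also answer to other signals. Tgfbi was at 424 against 608 CPM. The contractile list (median 1.04) gave 8 of 14 genes at least 2-fold higher, among them Myl9, Tpm4, Actn1 and Flna, and 1 at least 2-fold lower, Myl6, beside 11.4% and 3.41% of all genes.

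Acta2 and Tagln are also markers of pericytes and smooth muscle. The 10 pericyte and smooth muscle markers summed to 2260 CPM in the mutant Scx-high cells and 442 CPM in the wild-type Scx-high cells, with Tagln the most abundant in the former (1228 CPM). Without the 14 cells the sum was 2017 CPM, 1 marker was at 0 and Tagln was at 1262 CPM. Its ratio was 65.9 in place of 21.4 once the 9 wild-type cells were left out too. Acta2 was at 726 CPM without the 14 cells. Unthinned, 45.15% of the mutant and 45.75% of the wild-type Scx-high cells held an Acta2 UMI. At equal depth, and without the 14 cells, its share was 32.2% (25.3% to 39.7%) in the mutant cells. In the wild-type Scx-high cells it was 25.9% (23.2% to 28.7%). The part of pericytes or smooth muscle in these values was not tested.

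Of 30 listed peritenon and adventitial fibroblast genes, 24 could be compared with the wild-type Scx-high cells. By any amount 16 were higher and 8 lower, where 72.3% of all genes were higher. At 2-fold or more 9 were higher and 1, the chemokine gene Cxcl14, lower (72.7 against 330 CPM), beside 11.4% and 3.41% of all genes. The median was 0.72 beside 0.33 for all genes, and this list too holds genes that the study picked in these libraries. Mfap5 was given above. Lum, a small proteoglycan of fibroblasts, was at 733 against 89.4 CPM, Dpt, which encodes dermatopontin, at 144 against 8.39 CPM and Cxcl12 at 216 against 38.0 CPM. Dlk1, an imprinted membrane protein, was at 191 against 22.7 CPM, but immune cells, which gave the background, were at 143 CPM in the mutant and 8.56 CPM in the wild-type library. Serpine2, also among the 9, was at 31.4 CPM in the mutant Scx-high cells without the 14 cells. Immune cells held it at 22.8 CPM in the mutant and 2.14 CPM in the wild-type library. The count of 9 thus includes genes near the mutant background. Pi16 was at 19.3 against 11.7 CPM, with an interval of the ratio from 0.895 to 2.89, and Clec3b at 84.0 against 117 CPM. Of 7 stem and progenitor surface markers (median 0.85), Ly6a (77.2 against 31.8 CPM), Ly6e (176 against 15.5 CPM) and Cd34 (96.5 against 21.2 CPM) were at least 2-fold higher and Thy1 (147 against 372 CPM) was 2-fold lower. Ly6a was at 81.4 CPM in mutant and 10.7 CPM in wild-type immune cells, so its value in the mutant Scx-high cells was not above this background. Microfibril and elastic fibre genes gave 6 of 11 at least 2-fold higher and none 2-fold lower, with a median of 1.22. Eln, which encodes elastin, was at 5209 against 603 CPM in the sums, but was expected in fewer mutant (34.9%) than wild-type cells (50.3%) at equal depth, with medians of 0 and 4.12 UMIs per 10000. Unthinned, these shares were 42.7% and 72.5%. Other examples were Fbn1 at 462 against 150 CPM and Fbln5 at 281 against 56.3 CPM.

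Other matrix genes were divided. Of 10 small leucine-rich proteoglycans (median 0.99), Lum, Prelp, Aspn, Chad and Podn were at least 2-fold higher than in wild-type Scx-high cells, and Dcn and Fmod at least 2-fold lower. Aspn, which encodes asporin, was at 848 against 42.4 CPM (20.01-fold) and Dcn, the most abundant of them, at 6494 against 13203 CPM. Without the 14 cells Fmod was still 2-fold lower and Dcn was not. Of 17 matricellular and adhesion genes (median log2 ratio 0.58), Thbs1, Postn, Fn1 and the collagen receptor gene Itga11 were at least 2-fold higher and Sparc at least 2-fold lower. Of 7 tendon transcription factors measured well enough, Foxp1 was at least 2-fold higher (170 against 73.5 CPM), and both this share and the median of 0.30 were near those of all genes (11.4% and 0.33). Sox9, a cartilage factor, was at 11.4 against 12.8 CPM. Of 7 cell cycle genes, on which the selection bears, 6 were higher and 1 lower, and Mcm6 passed 2-fold (median 0.55 beside 0.33 for all genes).

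Muscle, pericyte and smooth muscle markers were given above, and those of further cell types were counted too. The 10 endothelial markers summed to 55.7 CPM in the mutant Scx-high cells, with 6 at 0 and Ramp2 highest, against 14.8 CPM in the wild-type Scx-high cells. The 12 immune markers, some of them used in the selection, summed to 29.5 and 37.3 CPM, and the 8 epidermal markers to 36.3 and 35.8 CPM, nearly all Krt10. The 10 Schwann and neural markers summed to 460 and 512 CPM, of which Pmp22, which fibroblasts also express, made up 400 and 502 CPM. The 8 red blood cell genes summed to 216 and 317 CPM, led by Hbb-bs.

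The second comparison set the mutant Scx-high cells against the Scx-low cells of the same library, which shares pups and preparation. Scx chose the groups, so genes that go with it are described and nothing is drawn from their direction. Over 4278 genes, 201 were at least 2-fold higher in the Scx-high cells (4.7%) and 242 at least 2-fold lower (5.66%). The median gene was at -0.04 on the log2 scale. Cells with markers of other types were left out of the Scx-low group but kept in the Scx-high group. Without the 14 such Scx-high cells the counts were 207 and 258, and with such Scx-low cells kept they were 190 and 256.

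Of 26 tenocyte genes compared, 18 were higher by 2-fold or more in the Scx-high cells and 2 were lower by that much. The shares of all genes were 4.7% and 5.66%. The median log2 ratio was 1.60 beside -0.04 for all genes. Beside Tnmd (5.24-fold) and Fmod (7.20-fold), Chad was at 299 against 32.6 CPM (9.16-fold, 7.55 to 11.1), Wif1 at 177 against 19.8 CPM, Cilp2 at 191 against 23.4 CPM and Cgref1 at 199 against 35.0 CPM. The 2 lower genes were Crabp1 (27.3 against 254 CPM) and Clu, which encodes clusterin (117 against 255 CPM). Apart from Myog and Actc1 the largest ratios were those of Col11a2 (252 against 12.9 CPM, 19.6-fold, 14.9 to 26.0) and Myoz2 (17.8-fold), with Mgll, a monoglyceride lipase, Acta2, Col2a1, Hbegf, an EGF family growth factor, and Slc20a1 between 7.42- and 8.64-fold. Wif1 and Col11a2 were thus higher in mutant Scx-high than in mutant Scx-low cells, and 4.10- and 7.64-fold lower than in wild-type cells with Scx. Col1a1 was 1.85-fold above the mutant Scx-low cells, while the wild-type Scx-high cells were 6.20-fold above the wild-type Scx-low cells.

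The peritenon and adventitial list ran the other way. Of 27 genes compared, 23 were at least 2-fold lower in the mutant Scx-high than in the Scx-low cells and none was 2-fold higher. The shares of all genes were 5.66% and 4.7%, and the median was -2.11 beside -0.04 for all genes. Pi16 was at 19.3 against 307 CPM (15.9-fold lower, 9.89 to 27.3), Dlk1 at 191 against 2381 CPM, Cxcl14 at 72.7 against 768 CPM, Serping1, a complement inhibitor, at 82.9 against 761 CPM and Entpd2, an ectonucleotidase, at 14.8 against 174 CPM. Mutant immune cells, as a background, held Pi16 at 19.5 and Entpd2 at 16.3 CPM, so both were at background in the Scx-high cells and these folds are bounds set by it. The surface markers Ly6a (77.2 against 970 CPM) and Ly6c1 (40.9 against 515 CPM) were both 12.6-fold lower. Mgst1, Tmem100, Penk, Agtr2 and Crabp1 completed the 12 largest ratios downwards, from 9.30-fold for Crabp1 to 12.2-fold for Mgst1. Ly6a, Mgst1 and Agtr2 were likewise no higher than in mutant immune cells (81.4, 81.4 and 35.8 CPM). Dlk1, Crabp1, Tmem100 and Penk were near that background, at 164.1, 28.96, 16.89 and 20.51 CPM without the 14 cells. Mutant immune cells held these 4 at 143.3, 22.79, 13.02 and 13.02 CPM, so their folds are nearer bounds. Ly6c1, Cxcl14 and Serping1 were at 43.43, 74.8 and 74.8 CPM without the 14 cells. Mutant immune cells held them at 26.05, 39.07 and 42.32 CPM, so part of their counts may be background too. Mfap5, Postn, Col5a1 and Aspn, which separated the mutant from the wild-type Scx-high cells, differed little between the mutant groups (ratios of 0.887, 1.42, 1.53 and 1.17). Eln and Rbp4, at ratios of 1.13 and 1.64, turned to log2 values of -0.21 and -0.0041 when the Scx threshold was raised to 50.

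The same genes were followed over ranges of Scx in both libraries, leaving out cells with markers of other types. Tnmd in mutant cells was at 678 CPM in the 1438 cells with no Scx UMI, 4113 CPM in the 33 cells with 30 to 60 Scx UMIs per 10000, 7696 CPM in the 40 cells with 120 to 240 and 5369 CPM in the 30 cells with 480 or more. In wild-type cells it was already at 7147 CPM from 30 to 60 and at 7762 CPM from 120 to 240, so the libraries met in that range. Fmod did not meet the wild-type level in any range above the threshold, with 2901 against 5685 CPM from 120 to 240. Col1a1 stayed between 17642 and 25204 CPM in the mutant cells above the threshold, where the wild-type cells went from 43273 to 78156 CPM. With no Scx UMI the libraries were alike, at 10787 and 10723 CPM. Col11a2 stayed at 380 CPM or less in every mutant range and reached 2114 CPM in the wild-type cells.

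Among the genes that were higher in the mutant cells, some were highest at high Scx and others were level. Tagln was at 87.6 CPM with no Scx UMI, 354 CPM from 30 to 60 and 2053 CPM from 240 to 480. Spp1 was at 83.0, 37.2 and 1552 CPM in the same ranges, and neither gene passed 77.8 CPM in any wild-type range. Postn was high in every mutant range, from 2286 CPM with no Scx UMI to 4396 CPM at 480 or more, with 2594 CPM from 120 to 240, and Mfap5 stood between 1263 and 1952 CPM. In the wild-type cells both were abundant only at low Scx, Mfap5 going from 3472 CPM with no Scx UMI to 38.3 CPM at 480 or more. Lum was lower at higher Scx in both libraries, going from 3130 to 384 CPM in the mutant and from 1870 to 41.5 CPM in the wild-type library. In the mutant cells Eln was highest from 30 to 60, at 16693 CPM, and lowest at 480 or more, at 300.1 CPM.

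**Figure D4:**
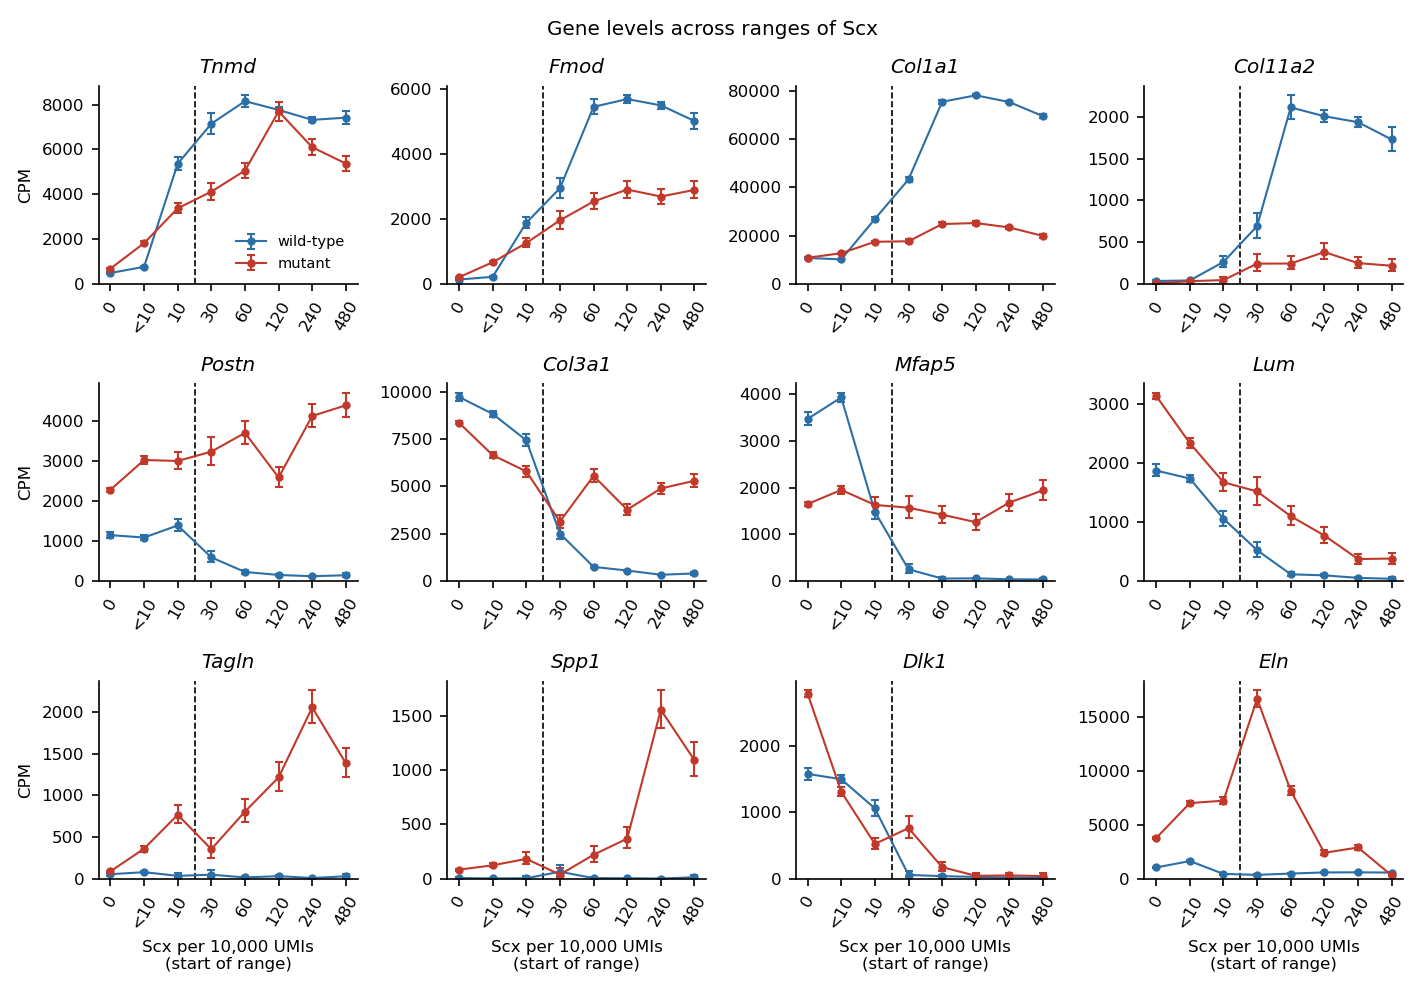
Level of 12 genes (CPM, y axes) in cells grouped by their Scx UMIs per 10000 (x axis, start of each range), in the wild-type (blue) and mutant (red) library, with exact 95% Poisson intervals of counting error and the Scx threshold as a dashed line. Tnmd of the libraries meets from 120 to 240, Col1a1 stays at or under 25204 CPM in the mutant cells, and Postn and Mfap5 are low above the threshold in the wild-type cells only.

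Detection per cell was compared with each cell thinned to 1569 UMIs, which kept 186 mutant and 1015 wild-type Scx-high cells and 1613 mutant Scx-low cells. Tnmd was expected in 81.7% of the mutant Scx-high cells (75.4% to 87.0%) and 99.7% of the wild-type Scx-high cells, against a background of 3.09% in mutant and 20.3% in wild-type immune cells. Unthinned, the shares were 85.0% and 99.9%. Fmod was expected in 79.0% and 98.9%, Kera in 41.4% and 80.8%, Col11a2 in 26.9% and 86.4% and Wif1 in 16.1% and 58.03%. Col11a2 and Wif1 were found in 0 of 97 mutant immune cells, which by a floor of 3 counts allows a share of up to 3.09% (exact upper bound 3.73%). Without the 14 cells Tnmd reached 86.8% and Fmod 83.3% of the mutant cells. In the other direction Postn was expected in 73.1% of the mutant (66.1% to 79.3%) and 11.3% of the wild-type Scx-high cells, Col3a1 in 85.5% and 38.1%, Mfap5 in 51.6% and 6.31%, Lum in 42.5% and 9.46%, Cilp in 47.3% and 5.81% and Tagln in 39.2% and 2.07%. Unthinned, the shares were 78.2% and 19.3% for Postn and 48.5% and 3.89% for Tagln. Background for these genes in immune cells was between 0% and 16.5%. Ly6a, at 8.60% (5.00% to 13.6%), lay within the interval of the mutant immune cells (5.15%, 1.70% to 11.6%) and is not read as expression. Dlk1, at 15.6% (10.7% to 21.6%), likewise lay within that interval (9.28%, 4.33% to 16.9%). For Cd34 the shares were 12.9% (8.45% to 18.6%) and 6.19% (2.30% to 13.0%), again with overlapping intervals.

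**Figure D5:**
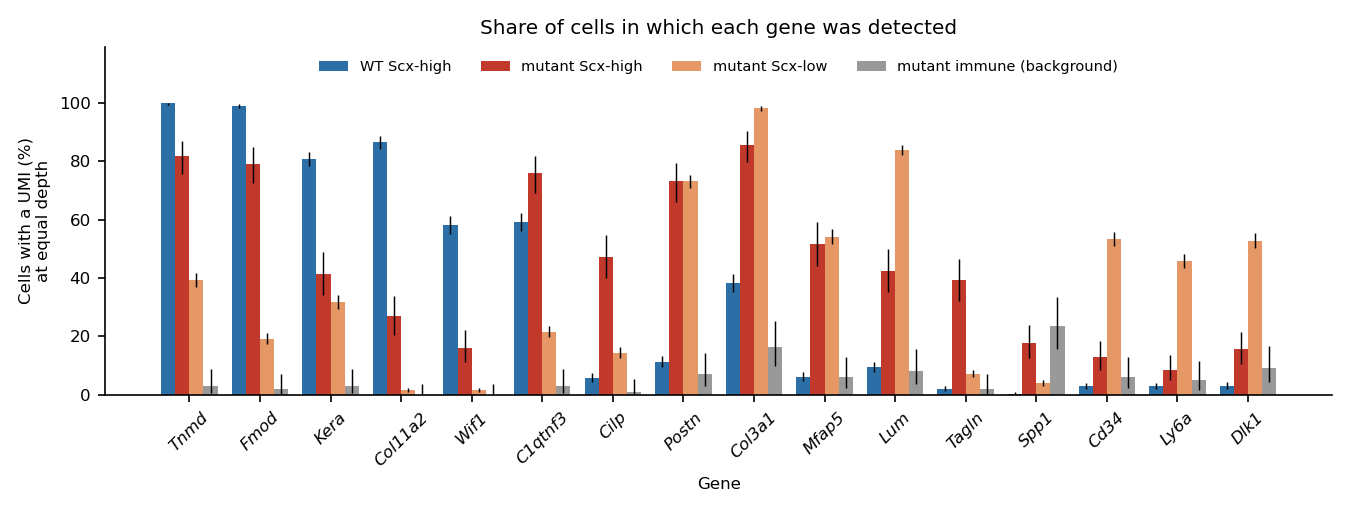
Share of cells expected to hold at least 1 UMI of each gene at 1569 UMIs per cell (%, y axis) in wild-type Scx-high, mutant Scx-high and mutant Scx-low cells and in mutant immune cells as a background, with exact 95% binomial intervals. Mutant Scx-high cells stand below wild-type cells for Tnmd to Wif1 and above them for C1qtnf3 to Dlk1. Spp1 is also made by immune cells, where it was expected in 23.7%.

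Tenocyte and fibroblast genes were found in the same cells. At equal depth 115 of the 186 mutant Scx-high cells were expected to hold both Tnmd and Postn (62.1%, 54.4% to 68.8%), against 11.2% of the wild-type Scx-high cells and 30.03% of the mutant Scx-low cells. Tnmd and Tagln were expected together in 31.7% of mutant Scx-high, 2.10% of wild-type Scx-high and 2.785% of mutant Scx-low cells. For Tnmd and Lum the shares were 36.2%, 9.36% and 32.9%, so the mutant groups were close for this pair. In mutant Scx-high cells with Tnmd, Postn was expected in 75.9%, Tagln in 38.8% and Lum in 44.2%. In those without Tnmd the shares were 61.9%, 41.5% and 34.8%. The joint shares therefore largely follow the share of each gene alone. Of the mutant Scx-high cells with Spp1, 95.6% were expected to hold Tnmd too, against 78.9% of those without Spp1. For Eln the shares were 70.6% of the cells with it and 87.8% of those without. These shares include the 14 cells with markers of other types, most of which had no Tnmd UMI. Without the 14 cells Tnmd was expected in 86.8% of all mutant Scx-high cells, in place of 81.7%. The shares by Spp1 and by Eln were not computed without them.

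The mutant Scx-high cells also differed among themselves. At equal depth the gene with the largest ratio of variance to mean was Eln (68.9, against 2.32 in the wild-type Scx-high cells), followed by Cdkn1c, Lgals3, Dcn and Col1a1. For Cdkn1c, Lgals3 and Dcn the wild-type values were 1.63, 2.20 and 5.64, also lower, whereas for Col1a1 (15.9 against 17.8), Col1a2 (9.29 against 9.23) and Sparc (8.74 against 10.3) they were close to or above the mutant ones, at higher wild-type means. Eln had 4587 UMIs over 88 of the 206 cells, and 8 cells held at least 50% of them, with up to 488 in 1 cell and a median of 0. Its summed level thus rests on few cells. Cdkn1c, an imprinted inhibitor of the cell cycle, was second with the 14 cells and ranked 12 without them, when its ratio of variance to mean was 7.54 in place of 22.4 and its ratio to the wild-type Scx-high cells 1.60 in place of 3.58. A single cell held 95 of the 170 UMIs of Lgals3, which encodes galectin 3. Spp1 had 618 UMIs over 57 cells, 6 of which held at least 50%, and Rbp4 had 295 over 44 cells, 5 of which held at least 50%. Dcn, which encodes decorin, Mgp, Col1a2 and Sparc were found in most cells.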

How the data were processed

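The authors made the UMI counts from 10x Genomics 3′ libraries sequenced on an Illumina NextSeq 500, aligned to mm10 with Cell Ranger. The submitters' processing notes give version 1.2.0, while the study's methods name a later one. Deposited counts were used as whole UMIs, not normalized, over 27998 genes. Depth was 9451606 UMIs for wild-type and 8250248 for mutant cells (median 3867 and 2828 per cell, lowest 948 and 903).

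All barcodes were used. Cells were selected by the limits given above, UMIs were summed per group and scaled to CPM, and genes with a mean of the 2 group means of at least 0.1 UMI per cell were compared, without Scx, the haemoglobin genes and the 8 proliferation and immune genes of the limits. A gene at 0 in a group was set at a floor of 3 counts over the group. Ratio intervals are exact conditional intervals, and share intervals are Clopper-Pearson. Immune cells held at least 10 UMIs over the 4 immune genes. For shares at equal depth, the chance that a cell thinned to 1569 UMIs holds the gene was summed over cells; shallower cells were left out (20 mutant and 91 wild-type Scx-high, 216 mutant Scx-low). Variability used 1 random thinning of each cell. Scrublet in scanpy 1.11.5, at an expected rate of 2%, called 8 mutant (0.309%) and 26 wild-type (1.10%) doublets. None was among the mutant and 12 were among the wild-type Scx-high cells. They were kept, and removing them moved 8 values and left 122.

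Named genes are the 12 with the largest ratio in each direction and comparison among genes at 0.5 UMI per cell or more in 1 group, without pseudogenes, Xist and Y-linked genes, and members of 30 gene lists, as counts and medians with a few members named. The cells and lists were chosen with earlier results of these data known. Python 3 with NumPy and SciPy was used, and the sums and intervals were tested on simulated data.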

Additional observations from a re-analysis of the deposited data

How the results depend on the processing

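With 1 library per group no value has a replicate check, and depth limits single-cell statements to abundant genes. No paired analysis was possible because each group was 1 library. The number of mutant Scx-high cells stayed within 1.5 times of 206 at Scx thresholds of 20 and 50 and under every filter on cells. With a filter of 0.5 UMI per cell, which tests fewer genes, 104 genes were higher and 56 lower than in wild-type Scx-high cells, 4 peritenon and adventitial genes were higher, and 68 genes were higher and 58 lower than in mutant Scx-low cells. Centred on the median gene, 263 were higher and 295 lower than in wild-type Scx-high cells. Thinned to equal UMIs per cell, which also leaves fewer genes, the counts were 211 and 75, and 112 and 133. The counts of listed tenocyte genes kept within 1.5 times under all alternatives run.

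With wild-type cells weighted to the mutant Scx ranges, 394 genes were higher and 146 lower than in wild-type Scx-high cells, and 27 values moved beyond their intervals while 39 did not. With counts scaled per cell, 46 moved and 84 did not, and against Scx-low cells with no Scx UMI, 33 moved and 31 did not. With Scx-low cells that had markers of other types kept, 19 moved and 45 did not. None of these turned a called direction. Thinning moved 51 values and left 59, and division by the ratio between Scx-low cells moved 45 and left 16, beside the changes of sign given next. The cause was not tested.

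Some single genes turned sign. Raising the Scx threshold to 50 turned Eln (-0.21, log2) and Rbp4 (-0.0041) against mutant Scx-low cells. Acan against wild-type Scx-high cells turned under thinning (-0.074) and, in an alternative chosen after seeing the data, when divided by the ratio between Scx-low cells (-1.08), as did C1qtnf3 (-0.19), Chad (-0.18), Thbs2 (-0.14) and Thbs4 (-0.26). The cause was not tested. Leaving out the cells with markers of other types, also chosen after seeing the data, gave 192 cells and moved no count of all genes, tenocyte genes or peritenon genes by over 1.5 times. Counts of 1 to 3 in small lists moved more, as for the proteoglycans 2-fold lower than in wild-type cells (from 2 to 1), the muscle markers 2-fold higher than in Scx-low cells (from 3 to 1) and the TGFβ targets 2-fold lower than in Scx-low cells (from 1 to 2).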

Other observations

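Growth regulators separated the mutant groups. Of 12 imprinted growth regulators compared between mutant Scx-high and Scx-low cells, 7 were at least 2-fold lower and none higher. The shares of all genes were 5.66% and 4.7%. The median log2 ratio was -1.23 beside -0.04 for all genes. H19, an imprinted non-coding RNA, was at 318 against 2846 CPM, and Igf2, a fetal growth factor, at 165 against 879 CPM. In wild-type Scx-high cells they were at 64.0 and 36.2 CPM. Immune cells, which gave the background, held H19 at 218 CPM in the mutant and 96.3 CPM in the wild-type library, and Igf2 at 55.3 and 38.5 CPM. Of 10 IGF pathway genes, 6 were at least 2-fold lower than in the Scx-low cells, beside 5.66% of all genes, with a median log2 ratio of -1.06. They included the binding proteins Igfbp3 (195 against 586 CPM) and Igfbp5 (184 against 596 CPM).

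Genes known to respond to tissue dissociation were also counted. Of 12 compared (median -0.21 beside 0.33 for all genes), none differed 2-fold between the Scx-high groups of the libraries. Fos was at 765 CPM in mutant and 779 CPM in wild-type cells. In mutant Scx-high against Scx-low cells 6 were at least 2-fold lower, beside 5.66% of all genes. The median there was -0.92 beside -0.04 for all genes, with Fos at 1904 CPM in the Scx-low cells. Of 19 secretory pathway genes (median 0.11), Creb3l1, a factor that drives collagen genes, and Sec61g were at least 2-fold lower than in wild-type Scx-high cells (154 against 433 and 20.4 against 92.1 CPM), and Creb3l2 was higher (96.5 against 31.1 CPM). Sec61g was low in the mutant library in every kind of cell looked at. Of 5 BMP genes compared with wild-type Scx-high cells (median -0.13), Fstl1 was at least 2-fold higher. Bambi, a decoy receptor, was at least 2-fold lower (67.0 against 222 CPM). Of 5 Wnt genes (median 0.09), Wnt9a was at least 2-fold higher (62.5 against 7.29 CPM) and Wif1 at least 2-fold lower.

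Myog was not confined to the Scx-high cells. In the mutant library 30 cells held 3 or more Myog UMIs, of which 20 had at least 1 Scx UMI and 11 reached the Scx threshold. In the wild-type library 1 cell held 3 or more.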
